A study of Mus musculus with 6 samples.

Results

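AP-1 is a family of transcription factors built as dimers of bZIP proteins. A Jun protein (Jun, Junb or Jund) pairs with another Jun, with a Fos protein (Fos, Fosb, Fosl1 or Fosl2) or with a factor of the ATF group such as Atf3. Several of these genes, with Egr1, Klf6 and Ier3, are immediate early genes, which cells transcribe within minutes of a growth factor, a cytokine or an injury, without first making new protein. In liver they are known for their part in regeneration and in stress, and the same genes can respond to the way tissue is taken. The group described here was defined by name as 10 genes, Fos, Fosb, Fosl2, Jun, Junb, Jund, Egr1, Atf3, Klf6 and Ier3. All 10 were found among the 16603 genes of the deposited count table. Of these, 9 passed the filter on low counts and were tested, and Fosb did not pass it.

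The study compared bulk RNA from mouse liver between 3 libraries labelled Mdr2-knockout and 3 libraries labelled wild-type (WT). Mdr2 (gene symbol Abcb4) moves phosphatidylcholine from hepatocytes into bile, and mice that lack it develop chronic cholangitis and fibrosis. No age, sex, strain, allele or treatment is given. Nothing in the labels ties the 3 samples of a group to separate animals, so p-values measure only the spread between these samples. The libraries held 17100393 to 18124467 counts. The letter of the wild-type columns was assigned by elimination. Abcb4 itself was higher in the labelled Mdr2-knockout libraries, at 499, 513 and 433 CPM, against 330, 369 and 273 CPM in the labelled wild-type libraries (log2 fold change 0.57, edgeR adjusted p = 0.00389). The labels do not say which part of Abcb4 the allele removes, so this count cannot check the genotype, and directions are given between libraries as labelled. CPM are counts relative to library size after TMM scaling, which corrects for libraries that spend their reads on a few very abundant genes.

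The promoters of Atf3 and Klf6, with higher levels in labelled Mdr2-knockout livers, are shown with those of Jun and Fos, which did not pass the test. Only windows with a match to the motifs marked in capitals are shown. The windows of Ier3 and Fosl2, whose levels were also higher, held no match and are left out. Windows from 250 bases before to 50 bases after the start site were found in RefSeq (GRCm38.p6) for 9 of the 10 members, all but Egr1. They are written 5′ to 3′ on the strand of the gene. Capitals mark matches on either strand to TGACGT, the core of the cyclic AMP response element that CREB and ATF factors bind, or to TGACNTCA, which covers that element and the variant known from the Jun promoter.
Atf3, chr1:191183284-191183583, minus strand: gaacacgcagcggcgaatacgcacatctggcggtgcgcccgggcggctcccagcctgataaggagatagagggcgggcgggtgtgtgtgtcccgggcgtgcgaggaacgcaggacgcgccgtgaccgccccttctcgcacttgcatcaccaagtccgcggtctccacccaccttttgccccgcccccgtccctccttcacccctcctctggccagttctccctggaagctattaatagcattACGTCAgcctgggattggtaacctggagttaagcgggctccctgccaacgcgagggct
Klf6, chr13:5861239-5861538, plus strand: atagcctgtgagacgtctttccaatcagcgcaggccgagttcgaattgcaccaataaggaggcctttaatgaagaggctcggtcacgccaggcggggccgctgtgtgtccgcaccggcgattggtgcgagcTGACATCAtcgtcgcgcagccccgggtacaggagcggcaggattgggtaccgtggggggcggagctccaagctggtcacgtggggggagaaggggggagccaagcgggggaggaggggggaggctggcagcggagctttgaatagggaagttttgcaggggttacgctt
Jun, chr4:95052173-95052472, minus strand: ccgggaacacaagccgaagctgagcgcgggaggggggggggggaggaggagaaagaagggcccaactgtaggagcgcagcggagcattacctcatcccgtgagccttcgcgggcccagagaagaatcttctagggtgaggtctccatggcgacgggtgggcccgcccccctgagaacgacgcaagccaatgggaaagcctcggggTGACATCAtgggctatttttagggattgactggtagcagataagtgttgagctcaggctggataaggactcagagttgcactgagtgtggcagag
Fos, chr12:85473640-85473939, plus strand: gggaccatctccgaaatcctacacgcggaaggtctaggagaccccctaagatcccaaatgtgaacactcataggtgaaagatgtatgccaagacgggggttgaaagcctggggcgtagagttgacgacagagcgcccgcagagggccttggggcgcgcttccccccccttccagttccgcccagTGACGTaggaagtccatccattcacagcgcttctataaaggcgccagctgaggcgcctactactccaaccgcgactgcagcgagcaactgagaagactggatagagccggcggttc

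The motif TGACGT, which overlaps TGACNTCA where N is G, was found in the windows of Atf3 and Fos, with its first base at -8 and -66 from the start site. It occurred in 7.51% of all 32851 promoter windows of the same length. TGACNTCA was found in the windows of Jun and Klf6, at -45 and -119, and in 8.83% of all windows. Neither motif was found in the windows of Fosb, Fosl2, Jund, Junb or Ier3. These windows follow RefSeq start sites, while the gene positions given below are from GENCODE. The start sites lie apart for Atf3, Fosl2 and Jund. For Jund the window ends at base 70697788 of chr8 and the GENCODE gene begins at 70698949. Absence of a motif therefore holds only for the windows searched. The AP-1 motif TGANTCA (7.81% of all windows) and the CArG box (1.63%), which serum response factor binds, were found in none of the 9 windows. Sequence more than 250 bases before the start site was not searched, nor was any of Egr1. The TATA motif TATAAA was found in Fos and Junb (13.6% of all windows). GGGCGG, the motif of Sp1-type factors, was found in 7 of the 9, all but Jund and Junb (35.7% of all windows). TGACNTCA was added to the search after the sequences had been seen. These matches describe letters in a short window and show no binding.

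Klf6, Atf3, Ier3 and Fosl2 passed the test with higher levels in the labelled Mdr2-knockout libraries. Fos, Jun, Junb, Jund and Egr1 did not pass. Thus 4 of the 9 members tested were called higher and 0 lower. Over all 12612 tested genes, 20.9% were called higher and 16.3% lower at an edgeR quasi-likelihood adjusted p under 0.05. At an unadjusted p under 0.05 the count of lower members was also 0, and it was 0 by DESeq2 and limma-voom. For the same 4 members the groups did not overlap, against 27.5% of all tested genes that were higher with no overlap (51.3% in either direction). At least 2-fold higher were 3 members, and 11.1% of all tested genes. The members' median log2 fold change was 0.46, beside 0.01 over all tested genes. Ier3 is among the 460 tested genes that reached 10 counts in no labelled wild-type library, of which 407 were called higher, so it could hardly have been tested without being higher. Among the other 8 members 3 were called higher and 2 of these at least 2-fold, beside 18.3% and 8.2% of the other 12152 genes, and their median was 0.28.

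Klf6 (GRCm38 chr13:5861482-5870394, plus strand), a zinc finger factor induced in injured liver and in activated stellate cells, had 23.7, 30.8 and 25.2 CPM in the labelled Mdr2-knockout libraries, against 6.67, 5.94 and 8.83 CPM in the labelled wild-type libraries. Its lowest labelled Mdr2-knockout library lay far above its highest labelled wild-type library. The log2 fold change was 1.90 (SE 0.16, edgeR adjusted p = 2.71e-05), a 3.72-fold difference.

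Atf3 (chr1:191170296-191218039, minus strand), a stress-induced factor of the ATF group that can repress or activate its targets, had 3.32, 7.40 and 3.84 CPM in the labelled Mdr2-knockout libraries, against 0.636, 1.02 and 1.51 CPM in the labelled wild-type libraries. Replicate 2 stood high in the labelled Mdr2-knockout group, and the groups did not overlap. The highest library of a group was 2.23 times its lowest in the labelled Mdr2-knockout and 2.38 times in the labelled wild-type group. The log2 fold change was 2.19 (SE 0.41, edgeR adjusted p = 0.00346), a 4.57-fold difference. The annotated gene Gm24748 lies on the other strand within Atf3.

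Ier3 (chr17:35821684-35822923, plus strand), which encodes a small protein linked to cell survival and to the shutdown of NF-kappa-B signalling, had 35, 43 and 32 counts in the labelled Mdr2-knockout libraries, against 1, 8 and 6 counts in the labelled wild-type libraries. On the CPM scale these were 1.73, 2.16 and 1.66, against 0.0636, 0.511 and 0.378. The labelled Mdr2-knockout libraries lay close together, while the labelled wild-type libraries spread 8.04-fold at very low counts. For Ier3 the log2 fold change was 2.52 (SE 0.46, edgeR adjusted p = 0.00219). Ier3 passed the low-count filter only through the labelled Mdr2-knockout libraries, as given above.

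Fosl2 (chr5:32135801-32157842, plus strand), which encodes the Fos protein Fra-2, a factor also linked to fibrosis, had 17.2, 20.2 and 15.8 CPM in the labelled Mdr2-knockout libraries, against 12.01, 11.6 and 14.9 CPM in the labelled wild-type libraries. The groups did not overlap, but the lowest labelled Mdr2-knockout library lay just above the highest labelled wild-type library. The log2 fold change was 0.46 (SE 0.13, edgeR adjusted p = 0.0188), a 1.38-fold difference. The call was lost when labelled Mdr2-knockout replicate 2 was left out (edgeR adjusted p = 0.0786), and when replicate 1 (0.0663) or replicate 2 (0.0824) of the labelled wild-type group was. The range over all 14 alternatives was 0.000873 to 0.214.

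Fosb (chr7:19302696-19310051, minus strand), a Fos protein gene known for its low resting level, had 10, 25 and 11 counts in the labelled Mdr2-knockout libraries, against 2, 0 and 3 counts in the labelled wild-type libraries. The 46 counts over the labelled Mdr2-knockout group compare with 5 over the labelled wild-type group, and the groups did not overlap. The mean CPM was 0.775 ± 0.420 and 0.105 ± 0.0965 (SD, n = 3 per group), a ratio of 7.35 that rests on few counts. In the fit without the low-count filter its log2 fold change was 2.78 (edgeR adjusted p = 0.0103, range over 5 alternatives 0.0103 to 0.0505). Fosb reached 10 counts in no labelled wild-type library, so the filtered fits among these took it in only through the labelled Mdr2-knockout libraries. The 0 counts of labelled wild-type replicate 2 allow a level of up to 0.192 CPM, taking 3 counts as the limit and covering counting error only.

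**Figure D1:**
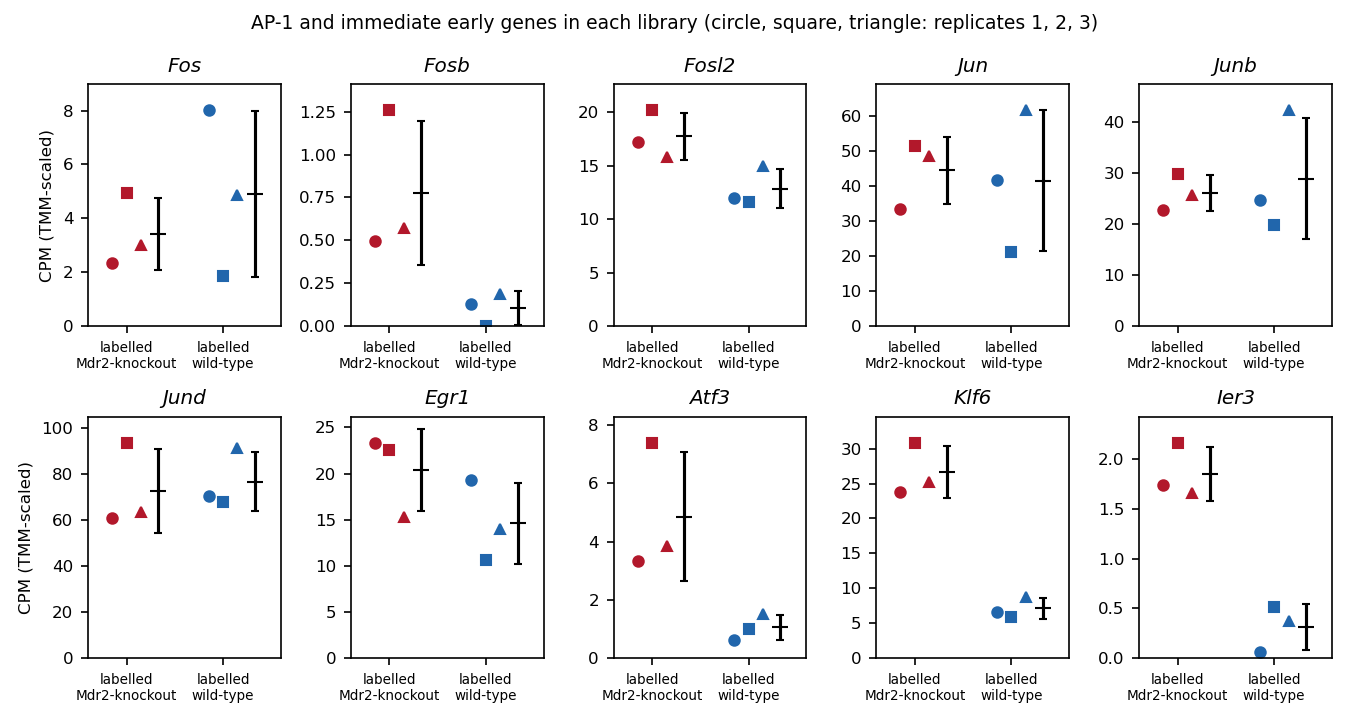
Level of each of the 10 members in CPM after TMM scaling, each panel with its own axis; circles, squares and triangles are replicates 1, 2 and 3, and the bars to the right of each group are its mean and SD (n = 3). Klf6, Atf3, Ier3, Fosl2 and Fosb show no overlap between the labelled Mdr2-knockout libraries (left, red) and the labelled wild-type libraries (right, blue), while Fos ran from 1.85 to 8.01 CPM within the labelled wild-type group alone.

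Fos (chr12:85473890-85477273, plus strand), the prototype of the family, had 2.33, 4.93 and 3.01 CPM in the labelled Mdr2-knockout libraries, against 8.01, 1.85 and 4.86 CPM in the labelled wild-type libraries. The highest and the lowest of all 6 values were both labelled wild-type libraries, and these differed 4.33-fold. For Fos the log2 fold change was -0.52 (SE 0.54, 95% interval -1.59 to 0.55, edgeR adjusted p = 0.4997). The 95% intervals here and below use a normal quantile of the SE, so they are narrower than the edgeR test implies. The spread of Fos within groups was larger than that of 99.4% of the tested genes, so a change of that size could not be told from the spread. Without labelled wild-type replicate 1 the log2 fold change was 0.018.

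Jun (chr4:95049034-95052222, minus strand), the main partner of Fos, had 33.6, 51.4 and 48.5 CPM in the labelled Mdr2-knockout libraries, against 41.8, 21.3 and 61.6 CPM in the labelled wild-type libraries. The labelled wild-type libraries again held both the highest and the lowest value. For Jun the log2 fold change was 0.10 (SE 0.44, 95% interval -0.77 to 0.97, edgeR adjusted p = 0.888). It was -0.02 without labelled Mdr2-knockout replicate 2 and -0.23 without labelled wild-type replicate 2. Jun is a single-exon gene that an annotated antisense gene, Junos, overlaps, and without a stated strand setting reads of the pair cannot be told apart.

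Junb (chr8:84974484-84978718, minus strand), often a brake on Jun activity, had 22.7, 29.8 and 25.7 CPM in the labelled Mdr2-knockout libraries, against 24.7, 19.8 and 42.3 CPM in the labelled wild-type libraries. The labelled Mdr2-knockout values lay inside the labelled wild-type range (log2 fold change -0.15, SE 0.31, 95% interval -0.76 to 0.46, edgeR adjusted p = 0.742). Its sign turned positive with total-count scaling (0.14) and without labelled wild-type replicate 3 (0.22). The GENCODE model of Junb overlaps the coding gene Prdx2 on the other strand. The RefSeq model of Junb overlaps Prdx2 by 0 bases. Its span of 1840 bases equals the length implied by the deposited counts and FPKM.

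Jund (chr8:70698949-70700616, plus strand), the Jun gene that resting cells express steadily, had 60.8, 93.7 and 63.5 CPM in the labelled Mdr2-knockout libraries, against 70.4, 68.1 and 91.4 CPM in the labelled wild-type libraries. A single library stood well above the others in each group, and the groups overlapped. Its log2 fold change was -0.08 (SE 0.21, 95% interval -0.48 to 0.33, edgeR adjusted p = 0.804), and its sign turned positive with total-count scaling (0.22). An annotated antisense gene, Gm11175, overlaps Jund.

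Egr1, a zinc finger factor induced by MAP kinase signalling, had 23.3, 22.6 and 15.3 CPM in the labelled Mdr2-knockout libraries, against 19.3, 10.6 and 14.0 CPM in the labelled wild-type libraries. Replicates 1 and 2 of the labelled Mdr2-knockout group lay above every labelled wild-type library, and replicate 3 did not. Its log2 fold change was 0.48 (SE 0.25, 95% interval -0.02 to 0.98, edgeR adjusted p = 0.185). This is about the size of the Fosl2 difference with a wider error. Without labelled wild-type replicate 1 it was 0.72 and passed (edgeR adjusted p = 0.0461).

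**Figure D2:**
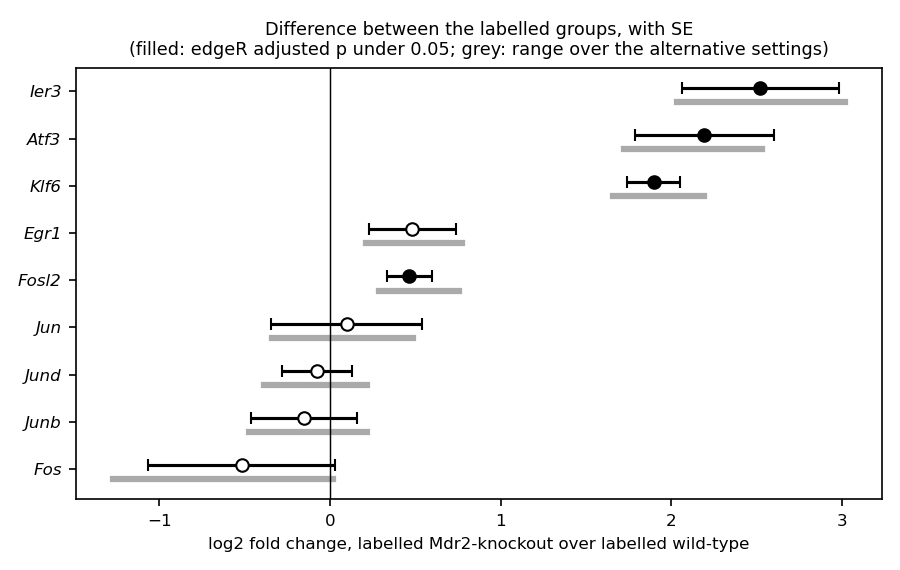
Log2 fold change of the 9 tested members, labelled Mdr2-knockout over labelled wild-type; points with bars are the estimate and its SE, filled where the edgeR adjusted p was under 0.05, and grey lines span the 14 alternative settings. Klf6, Atf3 and Ier3 stayed at 1.65 or above in every alternative, Fosl2 stayed positive, and the lines of Fos, Jun, Junb and Jund cross 0.

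The calls of Klf6, Atf3 and Ier3 held in each of the 14 alternative settings. A ratio of counts between genes of the same library does not depend on how libraries are scaled, so each was also set against Jund. Jund was picked as the base after its level had been seen. The log2 ratio of Klf6 to Jund counts was -1.36, -1.60 and -1.33 in the labelled Mdr2-knockout libraries, against -3.40, -3.52 and -3.37 in the labelled wild-type libraries. The ratio therefore differed by 2.00 between the group means, with no overlap. The same difference was 2.29 for Atf3 and 3.09 for Ier3, also with no overlap. For Ier3 it was 2.21 without labelled wild-type replicate 1, which held 1 count, and 3.74 without replicate 2 of that group. Each had a two-sided exact permutation p of 0.1, the smallest that 3 libraries against 3 can give. The log2 ratio of Fos to Jun averaged -3.75 ± 0.33 in the labelled Mdr2-knockout and -3.19 ± 0.70 in the labelled wild-type libraries (SD, n = 3 per group), and overlapped (exact permutation p = 0.3).

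Within a group the members often ranked the libraries alike, whether or not they differed between groups. In the labelled Mdr2-knockout group, replicate 2 was the highest library for 9 of the 10 members, all but Egr1. Over all tested genes that library was the highest of its group for 32.2%. In the labelled wild-type group, replicate 2 was the lowest library for 8 of the 10 members, all but Atf3 and Ier3, and for 30.1% of all tested genes. Replicate 3 was the highest for 7 of the 10 members, and for 35.1% of all tested genes. That library was also the highest of its group for 13 of 14 macrophage and monocyte markers, 10 of 12 stellate cell and fibroblast markers and 5 of 5 red blood cell markers. Labelled Mdr2-knockout replicate 2 was the highest of its group for 8 of 14, 1 of 12 and 1 of 5 of them. It was the lowest for 9 of the 12 stellate cell and fibroblast markers. The part of these markers in the members' ranking was not tested. The members' median deviation from the group mean, on the log2(CPM + 0.5) scale, in the order of the replicate numbers was -0.21, 0.22 and -0.13 for the labelled Mdr2-knockout libraries and -0.08, -0.25 and 0.24 for the labelled wild-type libraries. Egr1 was highest in replicate 1 of both groups, but in the labelled Mdr2-knockout group replicate 2 was close to it (deviations 0.21 and 0.17). In the labelled wild-type group the order of the libraries for Egr1 was that of Fos. The pooled SD within groups ran from 0.18 for Fosl2 to 0.75 for Fos on this scale, with 0.14 as the median of all tested genes. Genes with few counts spread more by sampling alone.

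**Figure D3:**
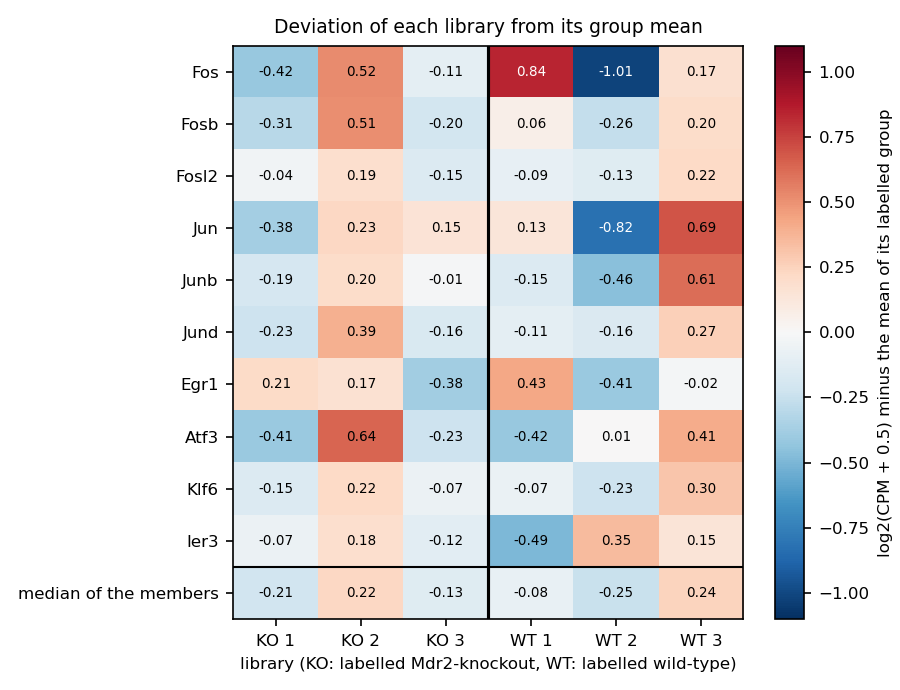
Deviation of each library from the mean of its labelled group, in log2(CPM + 0.5), for each member and for the median of the 10; red is above and blue below the group mean. Labelled Mdr2-knockout replicate 2 is above its group mean for every member, and labelled wild-type replicate 2 lies farthest below its own for Fos (-1.01) and Jun (-0.82).

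The genes whose profile over the 6 libraries was nearest to Fos or to Jun were sought among 11602 genes with a mean of at least 1 CPM. Nearness was the root mean square difference of mean-centred log2(CPM + 0.5). For Fos these were Cox16 (0.34), Mup6 (0.37), Dusp1 (0.37), Nr0b2 (0.38) and Elovl3 (0.39). Dusp1, an immediate early phosphatase that switches MAP kinases off, had 39.4, 87.3 and 61.5 CPM in the labelled Mdr2-knockout libraries, against 172, 75.3 and 106 CPM in the labelled wild-type libraries. Like Fos, it was highest in labelled wild-type replicate 1 and overlapped between the groups (log2 fold change -0.91, SE 0.46, edgeR adjusted p = 0.198). For Jun the nearest were Hspa1b (0.15), Esm1 (0.16), Tmppe (0.24), Mllt11 (0.24) and Fam47e (0.25). Hspa1b, an inducible heat shock protein 70 gene, had 4.56, 8.91 and 6.96 CPM in the labelled Mdr2-knockout libraries, against 6.99, 3.89 and 10.03 CPM in the labelled wild-type libraries. Within each group the order of the libraries was that of Jun. Hspa1a is a near-identical copy of Hspa1b, so reads could be split between them and the values of both are uncertain.

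Levels of different members were compared per length with the deposited FPKM, which are scaled by library total and not by TMM. In the labelled Mdr2-knockout libraries the order was Jund (27.9 ± 6.82 FPKM), Junb (15.7 ± 2.03), Jun (15.4 ± 3.25), Egr1 (7.35 ± 1.602) and Klf6 (6.98 ± 0.932), followed by Fosl2 (2.77 ± 0.330), Atf3 (2.71 ± 1.22), Ier3 (1.88 ± 0.262), Fos (1.79 ± 0.694) and Fosb (0.227 ± 0.121; SD, n = 3 each). Neighbours in that order overlapped for Junb and Jun, Egr1 and Klf6, and along Fosl2, Atf3, Ier3 and Fos. In the labelled wild-type libraries Jund (24.1 ± 4.01 FPKM), Junb (14.2 ± 5.79), Jun (11.8 ± 5.74) and Egr1 (4.31 ± 1.36) also came first. Fos (2.12 ± 1.36), Fosl2 (1.64 ± 0.231) and Klf6 (1.53 ± 0.323) followed, then Atf3 (0.482 ± 0.198), Ier3 (0.261 ± 0.187) and Fosb (0.0254 ± 0.0231). There, Junb and Jun overlapped, as did Egr1 and Fos, Fos and Fosl2, Fosl2 and Klf6, and Atf3 and Ier3. In the labelled Mdr2-knockout libraries Klf6 thus stood 5th of the 10 and in the labelled wild-type libraries 7th, where its range overlapped with that of Fosl2.

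Within the Jun family the shares overlapped between the groups for each gene. Jund took 48.0%, 50.2% and 43.1% of the family's summed FPKM in the labelled Mdr2-knockout libraries, against 48.0%, 57.6% and 42.9% in the labelled wild-type libraries. Its group means differed by -2.39 percentage points, with overlap (two-sided exact permutation p = 0.9). Jun took 26.2% ± 3.10 of the sum in the labelled Mdr2-knockout and 22.7% ± 5.59 in the labelled wild-type libraries (SD, n = 3 per group, exact permutation p = 0.6). Junb took 28.0%, 25.0% and 27.2% in the labelled Mdr2-knockout libraries, against 26.3%, 26.2% and 31.0% in the labelled wild-type libraries (exact permutation p = 0.7). The whole family summed to 49.0, 71.3 and 56.8 FPKM in the labelled Mdr2-knockout libraries, against 46.9, 36.6 and 66.7 FPKM in the labelled wild-type libraries.

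The Fos family was far lower and less even, at 4.11, 6.13 and 4.27 FPKM in the labelled Mdr2-knockout libraries, against 5.09, 2.24 and 4.02 FPKM in the labelled wild-type libraries. Fosl2 took 65.8%, 51.1% and 58.1% of it in the labelled Mdr2-knockout libraries, against 30.7%, 65.1% and 47.3% in the labelled wild-type libraries. Fos took 29.9%, 41.9% and 37.1%, against 68.7%, 34.9% and 51.6%. Fosl2 was thus the main Fos gene in each labelled Mdr2-knockout library, and Fos or Fosl2 in the labelled wild-type libraries, with overlap for both (exact permutation p = 0.4 for Fosl2 and 0.3 for Fos). Fosb took 3.55%, 5.97% and 3.93% in the labelled Mdr2-knockout libraries, against 0.609%, 0% and 1.123% in the labelled wild-type libraries. For Fosb the groups did not overlap, and the exact permutation p was the smallest possible, 0.1. Fosl1, the gene of Fra-1, had 1, 2 and 1 counts in the labelled Mdr2-knockout libraries, against 0 in each labelled wild-type library.

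**Figure D4:**
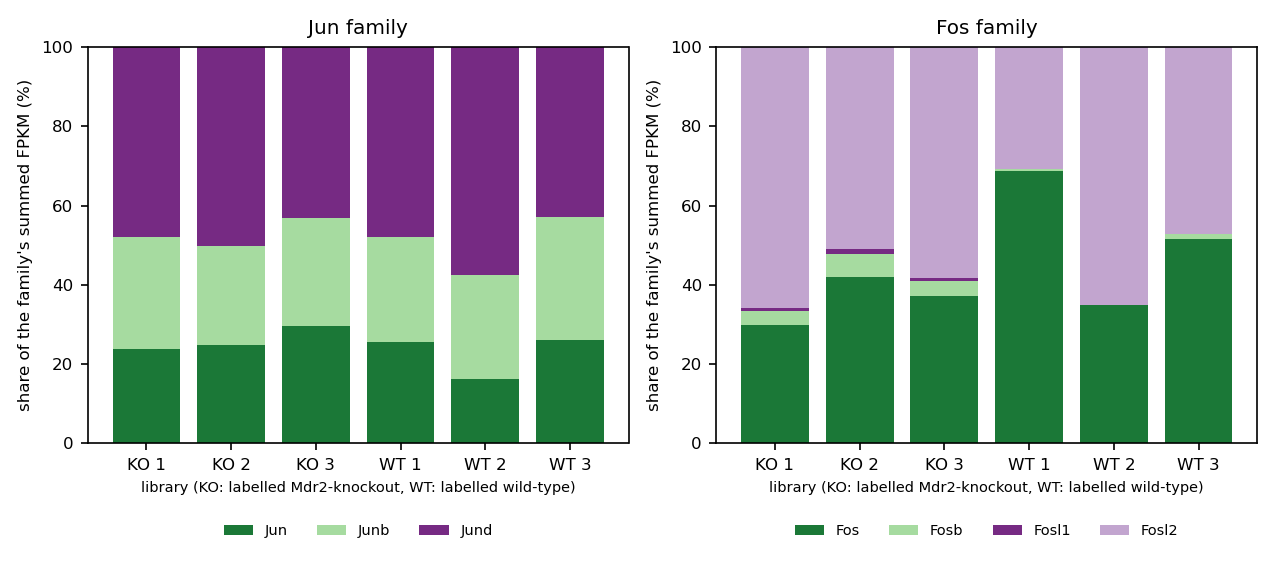
Share of each gene in the summed FPKM of the Jun family (left) and of the Fos family (right) in each library, labelled Mdr2-knockout (KO) before labelled wild-type (WT). Jund holds 42.9% to 57.6% of the Jun family in all libraries, while the split between Fos and Fosl2 varies most among the labelled wild-type libraries, where Fos holds 34.9% to 68.7%.

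Of 18 partner bZIP factors outside the 10 genes that were tested, the labelled Mdr2-knockout libraries had 2 higher (11.1%) and 3 lower (16.7%), near or under the shares of all tested genes. Nfil3, a repressor linked to the circadian clock, fell to 42.8 ± 5.55 CPM in labelled Mdr2-knockout livers, against 77.0 ± 6.30 CPM in the labelled wild-type libraries (SD, n = 3 per group, log2 fold change -0.85, edgeR adjusted p = 0.000184). The small Maf gene Mafk rose (log2 fold change 0.62, edgeR adjusted p = 0.00385) and its relative Mafg fell (-0.35, 0.00964). Maf (0.23) and Crem (-0.24) passed narrowly, and Atf5 (-0.80, edgeR adjusted p = 0.0536) did not pass. With total-count scaling the list had 6 higher and 1 lower. The count of higher factors was 1 without labelled Mdr2-knockout replicate 3 or labelled wild-type replicate 2, and that of lower factors 5 without labelled wild-type replicate 3.

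Of 39 other immediate early genes tested, 7 rose (17.9%) and 1 fell (2.56%), neither share above the shares of all tested genes. Plk2, a kinase gene, rose to 20.8 ± 0.262 CPM in labelled Mdr2-knockout livers, against 9.07 ± 1.83 CPM in the labelled wild-type libraries (log2 fold change 1.20, edgeR adjusted p = 0.000134). Tnfaip3, an inhibitor of NF-kappa-B signalling, stood at 14.3 ± 0.476 and 4.05 ± 1.39 CPM (log2 fold change 1.82), Ier5 at 13.4 ± 1.53 and 5.60 ± 1.74 CPM (1.25), and Ccn1, a matricellular protein gene, at 14.6 ± 0.898 and 7.74 ± 2.52 CPM (0.91), labelled Mdr2-knockout before labelled wild-type. Egr2, the relative of Egr1, rose at a very low level, with 1.16 ± 0.329 and 0.0848 ± 0.0970 CPM (log2 fold change 3.67, edgeR adjusted p = 0.00184), and Ier5l had a log2 fold change of 1.46. Egr2 and Ier5l reached 10 counts in no labelled wild-type library, and without them 5 of 37 rose. The lower gene was Klf9 (-0.41, edgeR adjusted p = 0.0390), named after its value was seen. DESeq2 called 9 higher and 5 lower, and limma-voom 8 higher and 1 lower. The count of higher genes was 14 with total-count scaling, 11 without labelled wild-type replicate 3, and 5 when replicate 2 of that group was left out. The lower genes then numbered 3 and 2.

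Upstream, of 35 tested genes of the MAP kinase cascade and the serum response factors 7 were higher (20%) and 6 lower (17.1%), near the shares of all tested genes. Map3k1, a kinase that feeds the JNK branch which phosphorylates Jun, rose to 36.3 ± 7.01 CPM in labelled Mdr2-knockout livers, against 14.5 ± 0.707 CPM in the labelled wild-type libraries (log2 fold change 1.32, edgeR adjusted p = 0.000122). Rps6ka3, a kinase downstream of ERK, had a log2 fold change of 0.77, Map3k14 of 1.118 and Mapk13, a p38 kinase gene averaging 0.943 and 0.190 CPM and below 10 counts in each labelled wild-type library, of 2.27. Map2k2, an ERK-activating kinase gene, fell (-0.57, edgeR adjusted p = 0.00134). With total-count scaling this list had 16 higher and 1 lower. The lower calls numbered 1 without labelled Mdr2-knockout replicate 1, and 2 without its replicate 2, without labelled wild-type replicate 2 or with upper-quartile scaling.

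Of 17 feedback inhibitors of the cascade tested, 4 rose and 4 fell, 23.5% each, beside 20.9% and 16.3% of all tested genes. Errfi1, an inhibitor of the EGF receptor, fell to 1507 ± 162 CPM in labelled Mdr2-knockout livers, against 2127 ± 156 CPM in the labelled wild-type libraries (log2 fold change -0.50, edgeR adjusted p = 0.00406), and Dusp16 fell as well (-0.35). Spry1 (0.74), Dusp14 (1.92), Dusp5 (1.14) and Spry2 (1.32) rose, the last 3 at means of at most 1.61 CPM in either group. Dusp14 and Spry2 reached 10 counts in no labelled wild-type library, and without them 2 of 15 rose. With total-count scaling 9 rose and 0 fell. Without labelled wild-type replicate 2 or 3 the count of higher genes was 2, and the count of lower genes fell to 1 when labelled Mdr2-knockout replicate 1 was left out, and to 2 when labelled wild-type replicate 1 was.

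Of 24 genes tested that are known as AP-1 targets in other systems, 16 rose and 1 fell. The share called higher was 66.7%, beside 20.9% of all tested genes. Their median log2 fold change was 1.47, beside 0.01 over all tested genes. For 5 of the 16, Sprr1a, Gsta1, Ccl2, Timp1 and Mmp13, no labelled wild-type library reached 10 counts, so they passed the filter only through the labelled Mdr2-knockout libraries. Among the other 19 targets 11 rose (57.9%, beside 18.3% of the other tested genes) and 1 fell, with a median of 1.35. Sprr1a, at 0 counts in each labelled wild-type library, was at least 35.1-fold higher, taking 3 counts over that group as the limit. Ccnd1, the cyclin D1 gene, rose to 25.2 ± 1.36 CPM in labelled Mdr2-knockout livers, against 5.16 ± 0.995 CPM in the labelled wild-type libraries (log2 fold change 2.29, edgeR adjusted p = 2.66e-06). The calcium-binding protein gene S100a6 had a log2 fold change of 2.59, the osteopontin gene Spp1 of 3.02, the macrophage elastase gene Mmp12 of 4.53, the chemokine gene Ccl2 of 3.89 and Gsta1, whose reads near-identical paralogs may share, of 6.02. The lower gene was the vascular growth factor gene Vegfa (-0.50, edgeR adjusted p = 0.00141). Most of these genes have other known regulators, and the list was chosen with earlier results of these data known, so it is no independent evidence of direction.

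**Figure D5:**
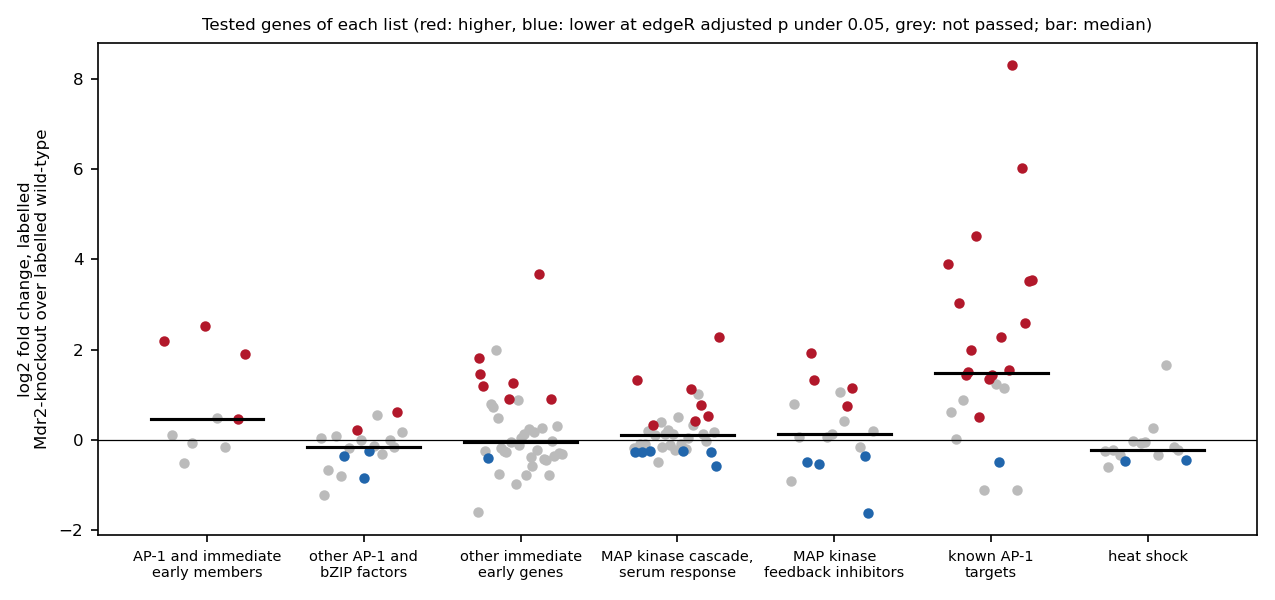
Log2 fold change of each tested gene, labelled Mdr2-knockout over labelled wild-type, by gene list; red and blue points passed at an edgeR adjusted p under 0.05, grey points did not, and bars are medians. Of the 7 lists drawn the known AP-1 targets have the highest median, 1.47, and the heat shock genes have a median of -0.22; the top point, Sprr1a, is a fitted value for a gene with 0 counts in the labelled wild-type group.

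Because immediate early genes can respond to handling, heat shock genes were read beside them. Of 14 tested, edgeR called 0 higher and 2 lower (14.3%, beside 16.3% of all tested genes) in labelled Mdr2-knockout livers, with 1 and 6 at an unadjusted p under 0.05. DESeq2 called 0 higher and 6 lower, and limma-voom 0 and 2. Hspa8 fell to 904 ± 144 CPM in labelled Mdr2-knockout livers, against 1236 ± 45.0 CPM in the labelled wild-type libraries (log2 fold change -0.45, edgeR adjusted p = 0.0115), and Dnajb1 fell too (-0.46, edgeR adjusted p = 0.00621). The inducible gene Hspa1a had 0.793, 1.81 and 0.623 CPM, against 0.127, 0.192 and 0.694 CPM, and did not pass (edgeR adjusted p = 0.0672). Hsp90ab1 (-0.22), Hspb8 (-0.33) and Bag3 (-0.26) did not pass either. The list's summed level in the order of the replicate numbers was 2479, 2754 and 3114 CPM for labelled Mdr2-knockout, against 3584, 3360 and 3343 CPM for labelled wild-type, and rests mostly on abundant chaperones such as Hspa8. Gene by gene, labelled Mdr2-knockout replicate 1 was the lowest of its group for 12 of the 14 and labelled wild-type replicate 2 for 7, the libraries that were also lowest for most members. The highest were labelled Mdr2-knockout replicate 3 for 10 and labelled wild-type replicate 1 for 9, unlike most members, while Hspa1a and Hspa1b were highest in labelled Mdr2-knockout replicate 2 and labelled wild-type replicate 3, as Jun was. With total-count scaling 3 heat shock genes rose and 0 fell. Without labelled Mdr2-knockout replicate 3, 5 were lower and 1 higher, and without labelled wild-type replicate 3, 4 were lower and 1 higher. Leaving out labelled Mdr2-knockout replicate 1 gave 2 lower and 1 higher. The labels say nothing of how or how fast the tissue was taken, and the part of handling in these results was not tested.

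Whole liver holds many cell types, and in bulk RNA a change in the number of cells cannot be told apart from a change in RNA per cell. Markers of several cell types differed between the same groups. Over all tested genes 20.9% were called higher and 16.3% lower. The endothelial (16.7% higher, 25% lower), lymphocyte (25% higher) and red blood cell (20% lower) markers called were near those shares. Summed cholangiocyte markers were at 198 to 202 CPM in labelled Mdr2-knockout livers, against 104 to 115 CPM in the labelled wild-type libraries, with 10 of 11 tested higher, among them Bicc1 (log2 fold change 2.58) but not Spint2 (0.17). Abundant markers such as Spint2 weigh most in that sum. The list's median log2 fold change was 3.41, or 2.58 without the 4 markers that reached 10 counts in no labelled wild-type library. Without those 4, 6 of 7 were higher, beside 18.3% of the other tested genes. Stellate cell and fibroblast markers summed to 694 to 838 CPM, against 285 to 439 CPM, with 9 of 12 higher, among them Rgs5 (1.16) and Dcn (0.74) but not Reln (0.39). Macrophage and monocyte markers summed to 600 to 664 CPM, against 243 to 430 CPM, with 10 of 14 higher, among them Lyz2 (1.75) but not Csf1r (0.54) or Clec4f (0.14). Labelled wild-type replicate 3 held the most of its group. Neutrophil markers summed to only 13.1 to 16.1 CPM, against 4.19 to 9.08 CPM, with 3 of 4 higher, among them Csf3r (1.31) and S100a8 (1.44) but not S100a9 (0.86). Their marker Ly6g had 0 counts in all 6 libraries. Lymphocyte markers summed to 7.70 to 10.6 CPM, against 4.51 to 7.06 CPM, with 1 of 4 higher, Jchain (2.51), and Cd4 (0.71) and Klrb1c (0.52) not passing. Jchain, the neutrophil marker Cxcr2 and the macrophage marker Gpnmb reached 10 counts in no labelled wild-type library. Without them 0 of 3 lymphocyte, 2 of 3 neutrophil and 9 of 13 macrophage and monocyte markers were higher. Endothelial markers overlapped, at 397 to 419 CPM and 379 to 452 CPM, with 2 of 12 higher, Stab2 (0.29) among them, and 3 lower, and with Stab1 (0.03) and Eng (0.0080) not passing. Leaving out labelled Mdr2-knockout replicate 1 or labelled wild-type replicate 2 brought the higher count to 0, and leaving out labelled Mdr2-knockout replicate 3 or labelled wild-type replicate 1 brought it to 1. Red blood cell markers summed to 215 to 239 CPM, against 206 to 483 CPM, where labelled wild-type replicate 3 held the highest value; Alas2 (-0.46) passed, and Hba-a1 (-0.43) and Hbb-bs (-0.34) did not. Hepatocyte markers, with 9 of 11 tested lower, Alb (-0.79) and Apob (-0.31) among them but not Cps1 (0.05), still made up 88524 to 90935 CPM, against 139058 to 147634 CPM, so both groups carried the defining markers of liver. The part of these shifts in the rise of Klf6, Atf3, Ier3 and Fosl2 was not tested.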

How the data were processed

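Liver RNA of 6 mouse libraries was analysed from 2 tables of the whole series. The authors deposited raw counts, whole numbers for each gene symbol. They also deposited FPKM, which in all 15493 genes compared were proportional to those counts within a relative tolerance of 0.001. The build mm10 and the tools SAMtools, HISAT2, StringTie, HTSeq, Bowtie2, Trimmomatic, DESeq and Cufflinks are named per the submitters' processing notes; roles, versions, annotation and strandedness were not given in the sources used here. Columns with M were read as Mdr2-knockout from the titles and columns with N as wild-type by elimination; 0 columns were left over.

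Counts were tested with edgeR 4.0.16 (R 4.3.3): filterByExpr (minimum count 10, minimum total 15), TMM factors, a robust quasi-likelihood fit of group to all 6 libraries, and Benjamini-Hochberg adjustment over 12612 genes, threshold 0.05. SE is the size of the log2 fold change over the root of F. Alternatives were other scalings, DESeq2 1.42.0, limma-voom (limma 3.58.1), no filter, a replicate block and omitted libraries. The fit was tested on simulated data drawn with the same dispersion for every gene, the median of the tested genes. Each member spread more within groups than the median tested gene, so the simulation does not test the fit at their spread. The members and lists were chosen with earlier results of these data known. The named genes were all members, the 6 smallest p of each other list, the 3 marker genes of highest mean CPM per cell type, the 5 nearest in profile to Fos and Jun, and Abcb4; other genes were named after their values were seen. A few genes under this rule are not reported here. Gene positions and overlaps between genes are from GENCODE M21 (GRCm38).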

Additional observations from a re-analysis of the deposited data

How the results depend on the processing

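The calls of Klf6, Atf3 and Ier3 held in all 14 alternatives, with log2 fold changes of 1.65 to 2.19, 1.72 to 2.53 and 2.03 to 3.02. The count of higher members ran from 3 to 5 when single libraries were left out, and of lower members it stayed at 0. The counts of 5 included Fosb, which those fits tested and the main fit did not. Over all genes 2634 were higher and 2051 lower; leaving out single libraries gave 2092 to 2603 higher and 1449 to 2006 lower. Scaling by total counts gave 5943 higher and 330 lower (94.7% of calls higher, against 56.2% with TMM and 67.2% with upper-quartile scaling), and the median log2 fold change of all genes shifted by 0.29.

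Of members that did not pass, the sign of Fos (0.018 without labelled wild-type replicate 1), Jun (-0.02 without labelled Mdr2-knockout replicate 2 and -0.23 without labelled wild-type replicate 2), Junb (0.14 with total counts and 0.22 without labelled wild-type replicate 3) and Jund turned. Jund gave 0.22 with total counts, 0.03 and 0.01 without labelled Mdr2-knockout replicates 1 and 3, and 0.059 without labelled wild-type replicate 3. Over single omitted libraries Jun reached 0.49. The cause was not tested.

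A setting chosen after the data were seen left out both libraries numbered 2. Most members were highest there in the labelled Mdr2-knockout and lowest there in the labelled wild-type group. By its construction this setting moves most members downward. Ier3 went the other way, with a log2 fold change of 2.90 beside 2.52 in the main fit. The setting gave 1572 genes higher and 825 lower, with 3 members higher and 1 lower. The lower member was Fos (log2 fold change -1.27, edgeR adjusted p = 0.0326, range over its alternatives 0.0326 to 0.982). Its drop was built into the choice of libraries, so this p-value is no evidence of a lower level. Jun was at -0.34, Junb at -0.47 and Jund at -0.38, and Fosl2 did not pass (0.29, edgeR adjusted p = 0.214).

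Fosb entered 5 fits and passed in 4, with edgeR adjusted p of 0.0103 to 0.0505.

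The differences in family shares (percentage points, labelled Mdr2-knockout minus labelled wild-type) ran, when single libraries were left out, from 0.25 to 5.19 for Jun, -1.92 to 0.50 for Junb, -5.70 to 1.66 for Jund, -23.8 to -6.91 for Fos, 3.17 to 4.37 for Fosb, 0.789 to 0.925 for Fosl1 and 2.11 to 19.3 for Fosl2.

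Same-numbered libraries did not deviate together (correlations across genes 0.10, 0.06 and -0.07), so the numbers were not taken as pairs. With the replicate block, 2576 genes were higher and 1992 lower and the same count of 4 members was higher. Under it 10 other immediate early genes were higher and 4 lower.

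The counts of other lists moved by over 1.5 times for 16 of 28 counts with total-count scaling, 2 with upper-quartile scaling, 1 with RLE factors, 3 with DESeq2, 0 with limma-voom, 1 without the low-count filter and 2 with the replicate block. Depth limits Fosb, Fosl1 and Ier3 most, where 1 count is worth 0.0496 to 0.0638 CPM.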
